A study of Mus musculus with 16 samples.

Results

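Tcf7, Lef1, Bach2, Foxo1, Id3, Klf2, Bcl6 and Satb1 are 8 transcription factor genes linked to memory and quiescence in T cells, and their accessible sites were described here in 16 ATAC-seq peak lists from mouse T cells. The genes were taken by name from GENCODE mouse M21 on GRCm38, all 8 were found, and they stand among 21938 protein-coding genes on the autosomes, X and Y. Every peak that overlapped a gene or the 50 kb to each side was counted, and peaks at gene starts were kept apart from distal peaks. A start peak had its summit within 1000 bp of an annotated transcript start of the gene. A distal peak had its summit more than 1000 bp from the transcript starts of all genes.

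The libraries came from a 2 by 2 design with 4 libraries per group. Wild-type cells (WT, TPdh+/+) and TPdh-/- cells were compared as effector (TE) and memory (TM) T cells. TPdh-/- mice carry a floxed Pdha1 allele (B6.129P2-Pdha1tm1ptl/J) crossed to a Cre transgene driven by Cd4 regulatory sequence, so that the E1 alpha subunit of pyruvate dehydrogenase, the enzyme complex that turns pyruvate into acetyl-CoA, is lost from T cells as they develop. By the study's methods, male and female mice of 8 to 12 weeks were used, OT-I CD8+ T cells, which carry a transgenic receptor for an ovalbumin peptide, were activated with that peptide for 3 days, and the cells were then cultured for 4 days with IL-2 (TE) or IL-15 (TM). The cultures are thus in vitro models of effector and memory cells. Nothing in the labels says which animals or cultures the 4 libraries of a group came from, so each p-value measures only the spread between these libraries.

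Quiescent naive and memory T cells keep a set of transcription factors that effector cells reduce. TCF-1 (Tcf7) and LEF-1 (Lef1) are HMG-box factors of the Wnt pathway that preserve the capacity for self-renewal, FOXO1 drives KLF2 and with it homing receptors and quiescence, and BACH2 and BCL6 repress effector genes. ID3 blocks E proteins by forming dimers that cannot bind DNA, and SATB1 organises chromatin in thymocytes and T cells. ATAC-seq finds DNA that the Tn5 transposase can reach, and an active gene is usually open at its start and at some enhancers.

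The lists were of very unequal length, and this touches all results below. WT TE lists held 2290 to 19234 peaks, TPdh-/- TE lists 32906 to 78635, WT TM lists 13304 to 54892 and TPdh-/- TM lists 60189 to 86637. The lowest local background at any peak, in fragments, was 0.636 to 1.55 in WT TE and 0.173 to 0.572 in the other libraries, and the smallest summit pileup that was called was 5 to 9 fragments in WT TE and 3 to 5 fragments elsewhere. A start peak was present at 18.7% ± 7.33 (SD, n = 4) of coding genes in WT TE, 18.8% ± 9.99 in TPdh-/- TE, 15.3% ± 10.7 in WT TM and 28.3% ± 3.95 in TPdh-/- TM. For 7 T cell markers, 27 of 112 gene and library pairs had a start peak (24.1%), near the 20.3% of all coding genes. B cell markers reached 4.69%, myeloid markers 7.81%, and the 2 CD4 T cell markers 9.38%. Of these Cd4 had a start peak in 0 libraries and Zbtb7b in 3, beside 2 for Cd8a and 8 for Cd8b1. Pdha1 itself had a start peak in 3 of 4 TPdh-/- TM libraries and in 1 library of each other group, and an open start does not show whether the floxed part was deleted. With bulk libraries, fewer cells open at a site and less opening per cell cannot be told apart.

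Each of the 8 genes lacked a start peak in most libraries. Of 128 gene and library pairs, 33 had one (25.8%), somewhat above the share of all coding genes, and they were spread as 3 of 32 pairs in WT TE (9.38%), 8 of 32 in TPdh-/- TE (25.0%), 7 of 32 in WT TM (21.9%) and 15 of 32 in TPdh-/- TM (46.9%). Beside the shares of all coding genes, the 8 genes thus stood lower in WT TE and higher in the other groups. Both shares count every annotated start. At the 5′ end alone Bach2 and Satb1 each had a peak in 2 of 4 TPdh-/- TM libraries instead of 4. The order of the genes ran from Satb1 with 7 of 16 libraries, through Bach2 and Klf2 with 6 each and Lef1, Foxo1 and Bcl6 with 4 each, to Tcf7 with 2 and Id3 with 0. This counts every annotated start of a gene, and at the 5′ end alone Klf2 led with 6 libraries, followed by Lef1, Bach2, Foxo1 and Bcl6 with 4 each and Satb1 with 3. The median coding gene had a start peak in 2 libraries, which 6 of the 8 genes exceeded, and 14.2% of coding genes had one in more libraries than Satb1.

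**Figure D1:**
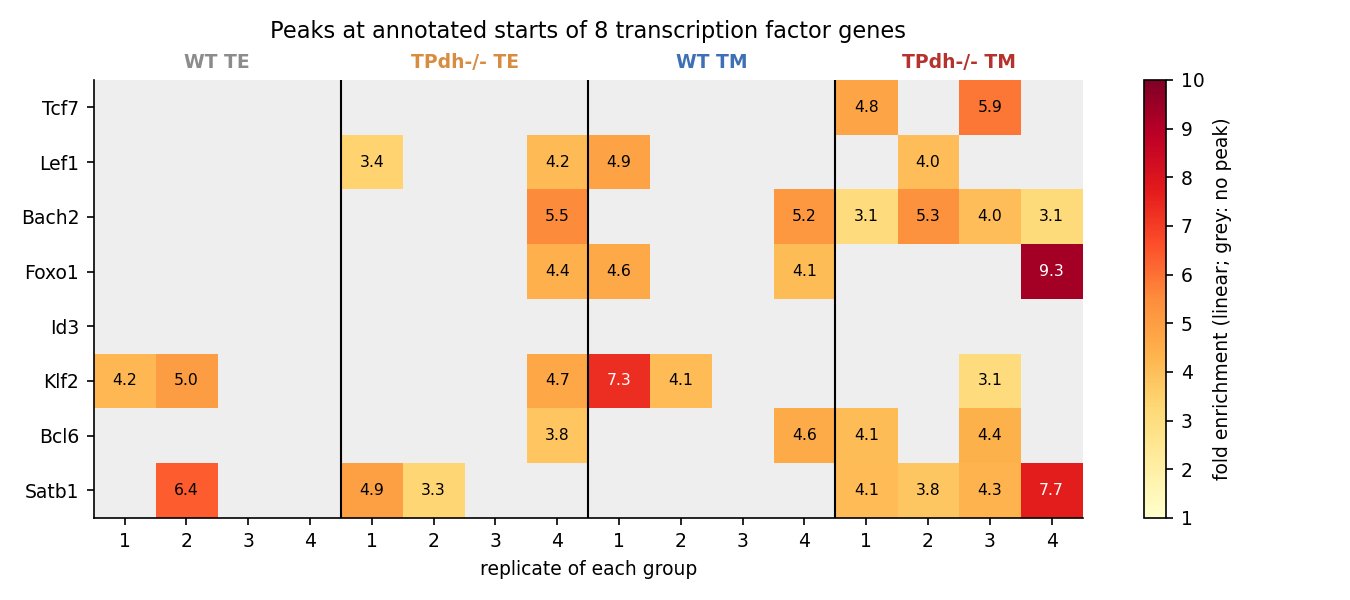
Fold enrichment, on a linear scale, of the start peak with the highest −log10 q at each gene (rows) in each of the 16 libraries (columns, 4 replicates of each of 4 groups), with grey where no start peak was called. Values lie between 3 and 9.3, no gene is filled in all libraries of both groups of any comparison, and Satb1 and Bach2 are filled in 4 of 4 TPdh-/- TM libraries.

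The promoters of Klf2, Foxo1, Satb1 and Id3 are printed to show the DNA at the starts with the most overlapping libraries (Klf2, Foxo1), at a start of the called gene (Satb1) and at the gene without a start peak in any library (Id3). They are RefSeq windows of 250 bases before to 50 bases after a start (GRCm38.p6, 5′ to 3′ on the strand of the gene), and capitals mark matches, on both strands, to any of 7 motifs.
Klf2, chr8:72318812-72319111, plus strand: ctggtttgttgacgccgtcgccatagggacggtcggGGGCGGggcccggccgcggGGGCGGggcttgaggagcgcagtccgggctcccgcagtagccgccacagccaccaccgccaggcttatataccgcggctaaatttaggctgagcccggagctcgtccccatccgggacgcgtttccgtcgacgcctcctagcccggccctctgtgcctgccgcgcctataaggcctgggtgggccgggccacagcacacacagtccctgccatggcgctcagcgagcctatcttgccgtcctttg
Foxo1, chr3:52268087-52268386, plus strand: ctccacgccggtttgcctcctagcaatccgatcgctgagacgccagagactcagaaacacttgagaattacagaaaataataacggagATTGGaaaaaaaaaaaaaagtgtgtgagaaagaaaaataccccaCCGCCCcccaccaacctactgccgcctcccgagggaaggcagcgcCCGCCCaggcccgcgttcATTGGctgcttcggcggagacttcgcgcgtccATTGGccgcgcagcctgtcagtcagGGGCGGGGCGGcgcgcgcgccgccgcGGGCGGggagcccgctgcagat
Satb1, chr17:51832598-51832897, minus strand: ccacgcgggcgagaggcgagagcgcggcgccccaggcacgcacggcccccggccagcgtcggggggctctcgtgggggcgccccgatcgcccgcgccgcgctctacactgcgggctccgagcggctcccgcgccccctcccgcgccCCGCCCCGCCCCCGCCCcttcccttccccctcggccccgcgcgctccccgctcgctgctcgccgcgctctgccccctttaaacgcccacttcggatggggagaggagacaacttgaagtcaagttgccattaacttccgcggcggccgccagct
Id3, chr4:136143572-136143871, plus strand: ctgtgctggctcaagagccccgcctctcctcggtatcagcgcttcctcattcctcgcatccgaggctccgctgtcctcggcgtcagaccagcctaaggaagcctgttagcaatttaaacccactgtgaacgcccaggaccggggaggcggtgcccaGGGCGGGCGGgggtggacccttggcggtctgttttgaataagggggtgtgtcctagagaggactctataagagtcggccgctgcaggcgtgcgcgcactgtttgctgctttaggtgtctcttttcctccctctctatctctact

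The search used the ETS motif CCGGAAG, the GC box GGGCGG and the CCAAT box. It also used the AP-1 motif TGANTCA, in which N is any base, the TCF/LEF motif CTTTGAT, the FOXO motif TGTTTAC and the RUNX motif TGTGGT. Peaks overlapped the Klf2 window in 6 libraries and the Foxo1 window in 4. They overlapped the printed Satb1 window in 2 libraries and the Id3 window in 0, as for 8 of the 17 windows of the 8 genes. All 4 windows hold GC boxes, 2 in Klf2, 5 in Foxo1, 3 in Satb1 and 2 in Id3, some of which overlap each other, and Foxo1 also holds 3 CCAAT boxes. Over all 8 genes RefSeq gave 17 such windows, of which 10 hold a GC box against 35.7% of 32851 promoter windows. CCAAT was in 3 of the 17 against 37.4%, the ETS motif in 2 against 8.86%, and the FOXO motif in 1 against 3.65%. AP-1, TCF/LEF and RUNX letters were in 0 of the 17, against 7.81%, 3.73% and 16.8%, which says only that these letters are not in these windows.

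Tcf7 (chr11:52252371-52283014, minus strand) had start peaks in TPdh-/- TM replicates 1 and 3 and in no other library. Their fold enrichment, the summit pileup plus 1 divided by the local background plus 1, was 4.75 and 5.91 at summits of 5 and 8 fragments. The 2 of 4 TPdh-/- TM libraries against 0 of 4 WT TM libraries did not pass the two-sided Fisher's exact test (p = 0.429).

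Lef1 (chr3:131110471-131224356, plus strand), like Tcf7 the gene of an HMG-box factor of the Wnt pathway, had start peaks in 2 TPdh-/- TE, 1 WT TM and 1 TPdh-/- TM library. Taking the strongest per library, fold enrichment was 3.42 and 4.16 in TPdh-/- TE replicates 1 and 4, 4.86 in WT TM replicate 1 and 4.05 in TPdh-/- TM replicate 2. The WT TM value lay above the other 3, each group held a start peak in at most 2 of 4 libraries, and WT TE held none.

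Foxo1 (chr3:52268336-52353221, plus strand) had the strongest start peak of all. In TPdh-/- TM replicate 4 its fold enrichment was 9.30, with a −log10 q of 11.3, a summit 24 bp from the transcript start and 13 fragments. The other Foxo1 start peaks reached 4.42 in TPdh-/- TE replicate 4, 4.64 in WT TM replicate 1 and 4.09 in WT TM replicate 4. TPdh-/- TM thus held 1 high value and no start peak in its other 3 libraries, and presence passed the test in no comparison.

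Klf2 (chr8:72319033-72321656, plus strand), the homing and quiescence factor downstream of FOXO1, was the 1 gene of the 8 with a start peak in every group. Fold enrichment was 4.23 and 5.01 in WT TE replicates 1 and 2, 4.71 in TPdh-/- TE replicate 4, 7.32 and 4.10 in WT TM replicates 1 and 2, and 3.08 in TPdh-/- TM replicate 3. In WT TE, the group of the shortest lists, it held 2 of the 3 start peaks of the 8 genes, and Satb1 in replicate 2 held the other.

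Bach2 (chr4:32238804-32586108, plus strand), the longest gene of the 8 at 347 kb, had a start peak in 4 of 4 TPdh-/- TM libraries, with fold enrichments of 3.05, 5.35, 4.03 and 3.13 in replicates 1 to 4. It had 1 more in TPdh-/- TE replicate 4 (5.51) and 1 in WT TM replicate 4 (5.17). TPdh-/- TM with 4 of 4 against WT TM with 1 of 4 did not pass Fisher's exact test (p = 0.143), and without WT TM replicate 4 the gene was called at p = 0.0286. Only 2 of the 4 TPdh-/- TM peaks lay at the 5′ end of the gene model.

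Bcl6 (chr16:23965052-23988852, minus strand), a repressor of effector genes, had start peaks in TPdh-/- TE replicate 4, WT TM replicate 4 and TPdh-/- TM replicates 1 and 3, with fold enrichments of 3.84, 4.62, 4.08 and 4.39. The values lay close together, and presence passed the test in no comparison. Id3 (chr4:136143497-136145755, plus strand), the short gene of the E protein inhibitor, had no start peak in any of the 16 libraries.

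Satb1 (chr17:51736187-51833290, minus strand) was the 1 gene whose start presence separated 2 groups. A start peak was present in 4 of 4 TPdh-/- TM libraries and 0 of 4 WT TM libraries. Two-sided Fisher's exact test gave p = 0.0286, the smallest that 4 against 4 libraries allow, and an adjusted p of 1 over all coding genes. In that comparison 0.561% of coding genes were called (123, of which 122 were higher in TPdh-/- TM), beside 1 of the 8 genes here.

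Those 4 Satb1 peaks did not lie at the same start. Fold enrichment was 4.10, 3.78, 4.33 and 7.68 in TPdh-/- TM replicates 1 to 4, and the summits lay 29 bp upstream and 1735, 523 and 18958 bp downstream of the 5′ end of the gene. Satb1 has 12 annotated transcript starts, the most of the 8 genes, and only 2 of the 4 peaks counted at the 5′ end. With that end alone the counts were 2 of 4 against 0 of 4 (exact p = 0.429), and with a window of 500 bp they were 3 of 4 against 0 of 4 (exact p = 0.143), so the call was lost.

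None of the 8 genes was called for start presence in the other comparisons, where the shares of coding genes called were 0.278% for TPdh-/- TE against WT TE, 0.278% for WT TM against WT TE and 0.415% for TPdh-/- TM against TPdh-/- TE. These comparisons share groups with each other and are not independent. The strength of start peaks could not be tested, since no gene had a start peak in all 8 libraries of a comparison and the most was 6 of 8. The 40 start peaks of the 8 genes had a median fold enrichment of 4.20 and a median −log10 q of 2.59. All 71256 start peaks of coding genes had medians of 4.76 and 3.31.

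Distal peaks were more frequent, with 471 in the 8 windows over all libraries. Their median fold enrichment was 4.08, against 4.06 for all 559326 distal peaks, their median −log10 q was 2.56 against 2.33, and their median summit held 5 fragments. As mean number per 100 kb and library, the Lef1 window was denser than 98.2% of the windows of coding genes, Bcl6 than 97.4%, Id3 than 97.1% and Bach2 than 95.7%. Satb1 (85.1%), Klf2 (84.6%), Foxo1 (72.8%) and Tcf7 (60.2%) lay lower in that order. These ranks pool libraries of very unequal length, and the order differed between groups. Tcf7 was denser than 98.2% of the windows of coding genes in WT TE and 97.4% in WT TM, but than 40.5% in TPdh-/- TE and 9.0% in TPdh-/- TM. Id3, without a start peak in any library, ranked first of the 8 in both effector groups and lower in memory cells (64.8% in WT TM and 86.9% in TPdh-/- TM). These ranks rest on few peaks. In WT TE Id3 held 2, 2, 1 and 0, beside 0, 3, 1 and 1 at Tcf7 in a longer window. In TPdh-/- TE Id3 had 3.18 distal peaks per 100 kb and Lef1 3.16. Bach2 ranged from 77.7% in WT TE to 96.8% in TPdh-/- TM and Bcl6 from 51.7% to 99.2% in the same groups, while Lef1 stayed between 88.8% and 96.7%.

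**Figure D2:**
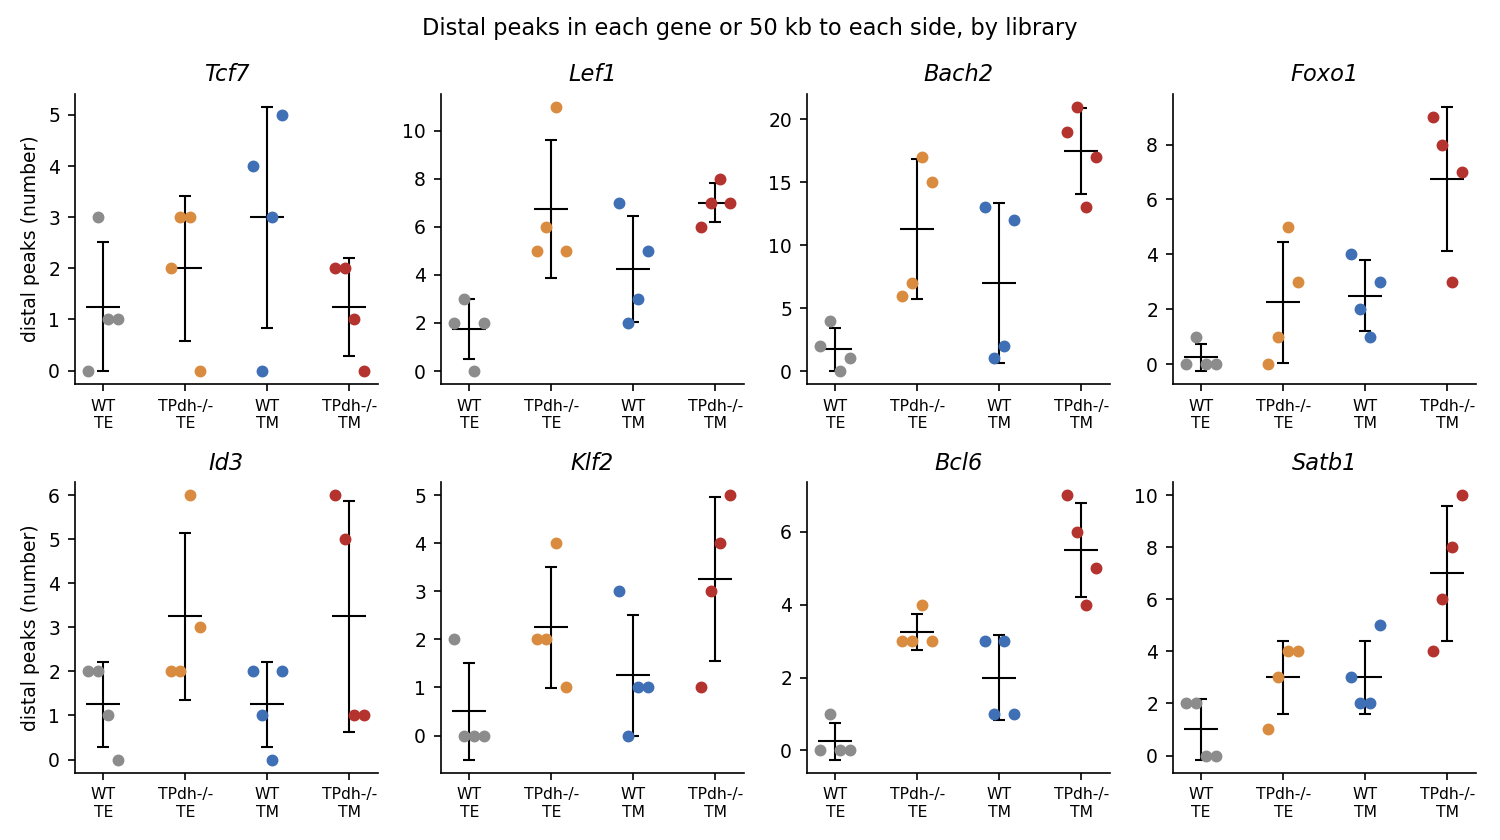
Number of distal peaks in each gene or 50 kb to each side (vertical axes, number, each panel with its own scale) in the 4 libraries of each group, with the mean and SD (n = 4) as bars. Lef1, Bach2 and Bcl6 show TPdh-/- TE above WT TE without overlap, Bcl6 also shows TPdh-/- TM above WT TM, and Tcf7 is the 1 gene with a lower mean in TPdh-/- TM (1.25) than in WT TM (3).

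Bach2 had the most distal peaks (150). WT TE libraries held 2, 4, 0 and 1, TPdh-/- TE libraries 6, 7, 17 and 15, WT TM libraries 13, 1, 2 and 12, and TPdh-/- TM libraries 19, 21, 13 and 17. WT TM split into 2 libraries near the TPdh-/- TM level and 2 near the WT TE level, with 54892 and 35168 peaks in the former lists and 23975 and 13304 in the latter. TPdh-/- TE was higher than WT TE with no overlap (11.25 ± 5.56 against 1.75 ± 1.71, SD, n = 4, exact permutation p = 0.0286, adjusted p = 0.107), and the call was lost when any of the 4 WT TE libraries was left out. It was also lost when peaks at the starts of other genes were counted (12.5 against 3, exact permutation p = 0.0857). Per 10000 peaks the effector means were 2.16 ± 0.399 and 1.57 ± 1.06 (exact permutation p = 0.429, n = 4). Here and below this scaling divides by all peaks of a list, of which a smaller part was distal in WT TE. Distal peaks were 3879 of 8654, 13733 of 19234, 632 of 2290 and 1543 of 5298 in the WT TE libraries. In TPdh-/- TE they were 32221 of 35699, 30371 of 32906, 70708 of 78635 and 48780 of 56441. This base thus lowers scaled values most in WT TE, and scaling to distal peaks alone was not done.

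The difference at Bach2 in memory cells, 17.5 ± 3.42 against 7 ± 6.38 (SD, n = 4), did not pass (exact permutation p = 0.0571), with 13 peaks the lowest value of TPdh-/- TM and the highest of WT TM. Without WT TM replicate 1 it was called. Scaled to 10000 peaks of the library, Bach2 held 2.51 ± 0.305 distal peaks in TPdh-/- TM and 1.93 ± 1.27 in WT TM (exact permutation p = 0.429, n = 4).

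Bcl6 was called in both genotype comparisons. WT TE libraries held 0, 1, 0 and 0 distal peaks and TPdh-/- TE libraries 3, 3, 4 and 3, with no overlap (exact permutation p = 0.0286, adjusted p = 0.107). In memory cells WT libraries held 3, 1, 3 and 1 and TPdh-/- libraries 7, 6, 4 and 5, again with no overlap (exact permutation p = 0.0286, adjusted p = 0.359). Without WT TM replicate 2, or without WT TM replicate 4, the memory call was lost. Per 10000 peaks the memory means were 0.794 ± 0.185 in TPdh-/- TM and 0.876 ± 0.926 in WT TM, so the direction of the mean turned (exact permutation p = 1, n = 4), and the effector difference kept its direction without passing (0.698 ± 0.208 against 0.130 ± 0.260, exact permutation p = 0.0571, n = 4).

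Lef1 was called in effector cells. WT TE libraries held 2, 3, 0 and 2 distal peaks and TPdh-/- TE libraries 5, 6, 11 and 5, with no overlap (exact permutation p = 0.0286, adjusted p = 0.107). Per 10000 peaks the direction turned, with 1.38 ± 0.384 in TPdh-/- TE and 1.91 ± 1.57 in WT TE (exact permutation p = 0.543, n = 4). In memory cells WT libraries held 7, 2, 3 and 5 and TPdh-/- libraries 6, 7, 8 and 7, which overlapped (exact permutation p = 0.114), and without WT TM replicate 1 the gene was called. Here too the direction turned per 10000 peaks, with 1.03 ± 0.226 against 1.45 ± 0.594 (exact permutation p = 0.257, n = 4).

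Foxo1 and Satb1 had their highest mean numbers in TPdh-/- TM. Foxo1 held 0, 1, 0 and 0 distal peaks in WT TE, 0, 1, 5 and 3 in TPdh-/- TE, 4, 2, 1 and 3 in WT TM and 9, 8, 3 and 7 in TPdh-/- TM. Satb1 held 2, 2, 0 and 0 in WT TE, 1, 3, 4 and 4 in TPdh-/- TE, 3, 2, 2 and 5 in WT TM and 4, 6, 8 and 10 in TPdh-/- TM. In both genes TPdh-/- TM and WT TM overlapped, and neither difference passed (exact permutation p = 0.0857 for Foxo1 and p = 0.0571 for Satb1). Per 10000 peaks Foxo1 held 0.961 ± 0.361 in TPdh-/- TM and 0.792 ± 0.0609 in WT TM (exact permutation p = 0.457, n = 4), and at Satb1 the direction turned, with 1.03 ± 0.449 against 1.08 ± 0.462 (exact permutation p = 0.8, n = 4). Foxo1 was called without TPdh-/- TM replicate 3, and Satb1 without TPdh-/- TM replicate 1.

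Foxo1 was the 1 gene called per 10000 peaks. WT TM held 0.792 ± 0.0609 and WT TE 0.130 ± 0.260 distal peaks per 10000 (n = 4, exact permutation p = 0.0286, adjusted p = 0.423). All 4 WT TM libraries lay between 0.729 and 0.853, and WT TE had a Foxo1 distal peak in replicate 2 only. As plain numbers the same comparison gave p = 0.0571 by the exact permutation test.

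In memory cells Tcf7 had the lower mean in the group with the longer lists. WT TM libraries held 4, 0, 3 and 5 distal peaks and TPdh-/- TM libraries, with more peaks in each list, held 2, 2, 1 and 0. The groups overlapped and the difference of the means (3 ± 2.16 against 1.25 ± 0.957, SD, n = 4) did not pass (exact permutation p = 0.257). Per 10000 peaks it was 1.10 ± 0.964 against 0.175 ± 0.130 (exact permutation p = 0.143), and without WT TM replicate 2, which held none, the plain number was called. With a flank of 100 kb the means were equal at 4 (exact permutation p = 1). Without peaks on CA or TG runs of 20 bases or more they were 1.75 in WT TM and 1 in TPdh-/- TM (exact permutation p = 0.686). WT TE held 0, 3, 1 and 1 and TPdh-/- TE 2, 3, 3 and 0 distal peaks at Tcf7, which overlapped, with the higher mean (2 against 1.25) in the longer lists, which turned per 10000 peaks (0.463 against 1.95, exact permutation p = 0.143).

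Id3 and Klf2 had few distal peaks, and no comparison passed. Id3 held 2, 2, 1 and 0 in WT TE, 2, 2, 6 and 3 in TPdh-/- TE, 2, 1, 0 and 2 in WT TM and 6, 5, 1 and 1 in TPdh-/- TM. Klf2 held 2, 0, 0 and 0 in WT TE, 2, 2, 4 and 1 in TPdh-/- TE, 3, 0, 1 and 1 in WT TM and 1, 3, 4 and 5 in TPdh-/- TM. Per 10000 peaks the effector means turned from higher to lower in TPdh-/- TE, with 0.616 ± 0.103 against 1.93 ± 1.88 at Id3 (exact permutation p = 0.314, n = 4) and 0.463 ± 0.195 against 0.578 ± 1.16 at Klf2 (exact permutation p = 1, n = 4). Both genes are short, with 2.26 kb for Id3 and 2.62 kb for Klf2, so that nearly all of their window is flank.

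Read against all coding genes, the counts of calls were as follows. For the distal number, 7.96% of coding genes were called in TPdh-/- TM against WT TM, 26.8% in TPdh-/- TE against WT TE, 6.91% in WT TM against WT TE and 1.81% in TPdh-/- TM against TPdh-/- TE, beside 1, 3, 0 and 0 of the 8 genes. Nearly all calls of the genome were higher in the group with longer lists, with 1745 of 1747 in the first of these and 5871 of 5871 in the next. Per 10000 peaks the shares were 3.61%, 17.2%, 6.75% and 3.28%, beside 0, 0, 1 and 0 of the 8 genes. Against WT TE these calls still went mostly 1 way, with 3674 of 3779 higher in TPdh-/- TE and 1424 of 1481 higher in WT TM, the direction of the Foxo1 call. The scaling is by all peaks, of which a smaller part was distal in WT TE than in the other groups. The part of this in the scaled calls was not tested. No gene of the genome passed after adjustment in any of these 8 tests, with the smallest adjusted p at 0.107. With 0.0286 as the smallest p of the exact permutation test, passing needs most of the 21938 genes at that floor together. The adjusted values thus say little about single genes. The part of list length in the plain numbers was not tested further.

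**Figure D3:**
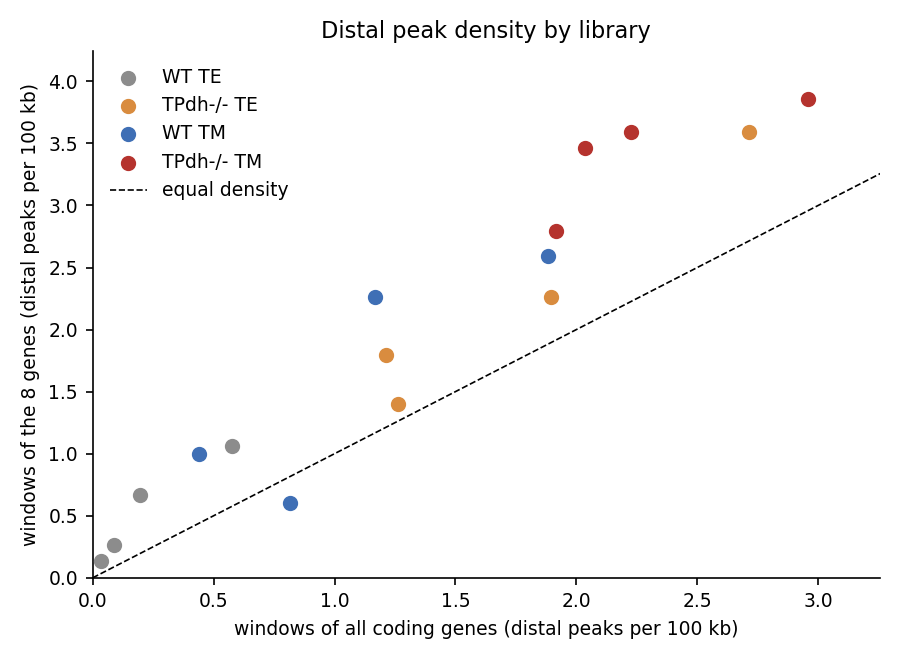
Distal peaks per 100 kb in the windows of the 8 genes (vertical axis) against the same density over the windows of all coding genes (horizontal axis), 1 point per library coloured by group, with a dashed line of equal density. Of the 16 points, 15 lie above the line, and WT TM replicate 2 lies below it with a ratio of 0.735.

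Taken per library, the 8 windows were denser in distal peaks than the windows of all coding genes in 15 of 16 libraries. The ratio of the densities was 3.42, 1.84, 3.93 and 3.05 in the WT TE libraries, on only 10, 16, 2 and 4 peaks. It was 1.11, 1.48, 1.32 and 1.19 in TPdh-/- TE, 1.38, 0.735, 2.26 and 1.94 in WT TM, and 1.62, 1.305, 1.46 and 1.70 in TPdh-/- TM. Cut to the 2290 strongest peaks of each list, the length of the shortest, the libraries held 0 to 3 distal peaks in all 8 windows together and 1 start peak in all, the Foxo1 peak of TPdh-/- TM replicate 4.

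Sites that recurred between libraries were few. Peaks of all libraries were merged, and a recurring distal site was a merged region that at least 4 of 16 libraries held and in which all summits were more than 1000 bp from any transcript start. The genome had 3563 of them and the 8 windows had 9. At the other end, 294 of the merged distal regions in the 8 windows were held by 1 library and 54 by 2. No recurring site was within the Tcf7, Foxo1 or Klf2 windows.

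The site that most libraries held lay in an intron of Lef1 (chr3:131208157-131208830), 98.2 kb downstream of the 5′ end. It was held by WT TE replicates 1, 2 and 4 with fold enrichments of 6.51, 5.72 and 6.69, by TPdh-/- TE replicate 4 with 5.48, and by TPdh-/- TM replicates 2 and 3 with 6.75 and 3.52. WT TM libraries held it in 0 of 4, and WT TE in 3 of 4 although its lists were the shortest. Fisher's exact test gave p = 0.143 for WT TM against WT TE and p = 0.429 for TPdh-/- TM against WT TM.

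**Figure D4:**
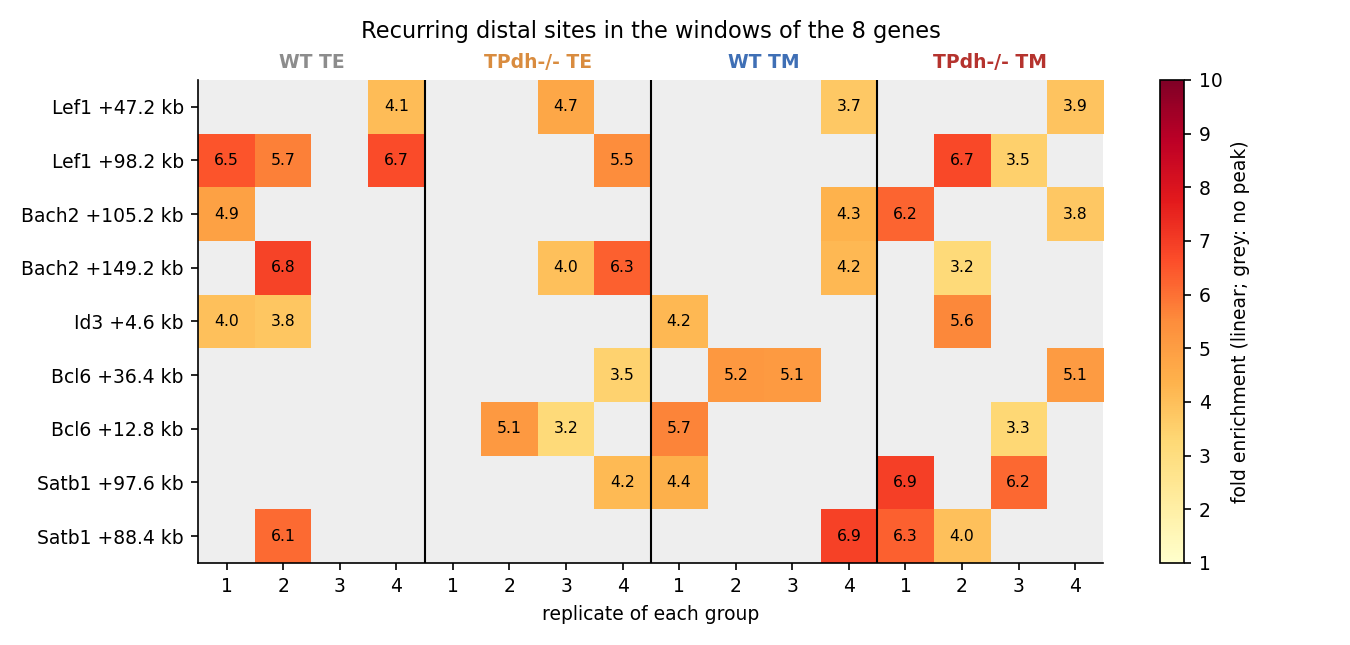
Fold enrichment, on a linear scale, of the peaks at the 9 recurring distal sites (rows, named by gene and distance downstream of its 5′ end) in the 16 libraries (columns, 4 replicates of each of 4 groups), with grey where no peak was called. The Lef1 site at +98.2 kb is filled in 6 libraries, 3 of them WT TE, and the other sites in 4 or 5.

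The other 8 sites, which were held by 4 or 5 libraries, are named here after their values were seen. They lay at +47.2 kb in Lef1, at +105.2 and +149.2 kb in Bach2, at +12.8 kb in Bcl6 and at +88.4 kb in Satb1, all in introns, and in intergenic DNA at +4.6 kb of Id3, +36.4 kb of Bcl6 and +97.6 kb of Satb1. The Bach2 site at +149.2 kb was held by 5 libraries with fold enrichments between 3.17 and 6.84. The Satb1 site at +88.4 kb had its 4 summits within 88 bp, the closest of the 9, with fold enrichments between 3.96 and 6.88.

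None of the 9 sites was called in any comparison. The shares of the 3563 sites called were 1.07% for TPdh-/- TM against WT TM, 0.702% for TPdh-/- TE against WT TE, 0.337% for WT TM against WT TE and 1.04% for TPdh-/- TM against TPdh-/- TE. In the first comparison the unadjusted exact p was 0.429 at the Lef1 site at +98.2 kb and 1 at the other 8. Held by 4 of 16 libraries in 7 of the 9 cases, these sites could seldom show a difference of 4 against 0.

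The DNA under 2 of these sites is printed because the Lef1 site recurred most and the Satb1 site showed a feature that many distal peaks share. Each is 201 bases centred on the median summit (RefSeq GRCm38.p6, plus strand). Capitals mark motif matches in the Lef1 sequence, and runs of CA dinucleotides of 20 bases or more in the Satb1 sequence.
Lef1 +98.2 kb, chr3:131208586-131208786: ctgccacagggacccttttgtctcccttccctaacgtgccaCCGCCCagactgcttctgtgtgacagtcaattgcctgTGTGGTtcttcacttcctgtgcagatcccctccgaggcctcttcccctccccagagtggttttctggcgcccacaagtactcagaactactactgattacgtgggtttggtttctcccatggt
Satb1 +88.4 kb, chr17:51744758-51744958: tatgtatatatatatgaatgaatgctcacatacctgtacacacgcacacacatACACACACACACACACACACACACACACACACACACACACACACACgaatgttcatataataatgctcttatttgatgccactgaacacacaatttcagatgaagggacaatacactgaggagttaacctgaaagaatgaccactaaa

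The Lef1 window holds 1 GC box and 1 RUNX motif, which 6.06% and 21.5% of all 3563 recurring windows hold. The FOXO motif was in 2 of the 9 sites, against 2.19% of all. RUNX letters were in 4 of the 9, among them the Bcl6 site at +12.8 kb with 10 matches inside a TG repeat. The TCF/LEF motif was in 1 of the 9, at Bach2 +105.2 kb, against 2.78% of all.

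Repeats of CA or TG were common under distal peaks. Of the 9 recurring sites 4 held a run of 20 bases or more, among them runs of 42 bases at Bcl6 +12.8 kb, 55 at Satb1 +97.6 kb and 46 at Satb1 +88.4 kb. Of all 3563 recurring sites 30.3% did. Among the 471 distal peaks of the 8 windows, 88 held such a run within the 201 bases at the summit (18.7%), against 2.52% of the 7470 adjoining stretches of 201 bases that tile the same windows. Of all distal peaks of the genome 14.5% held one.

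**Figure D5:**
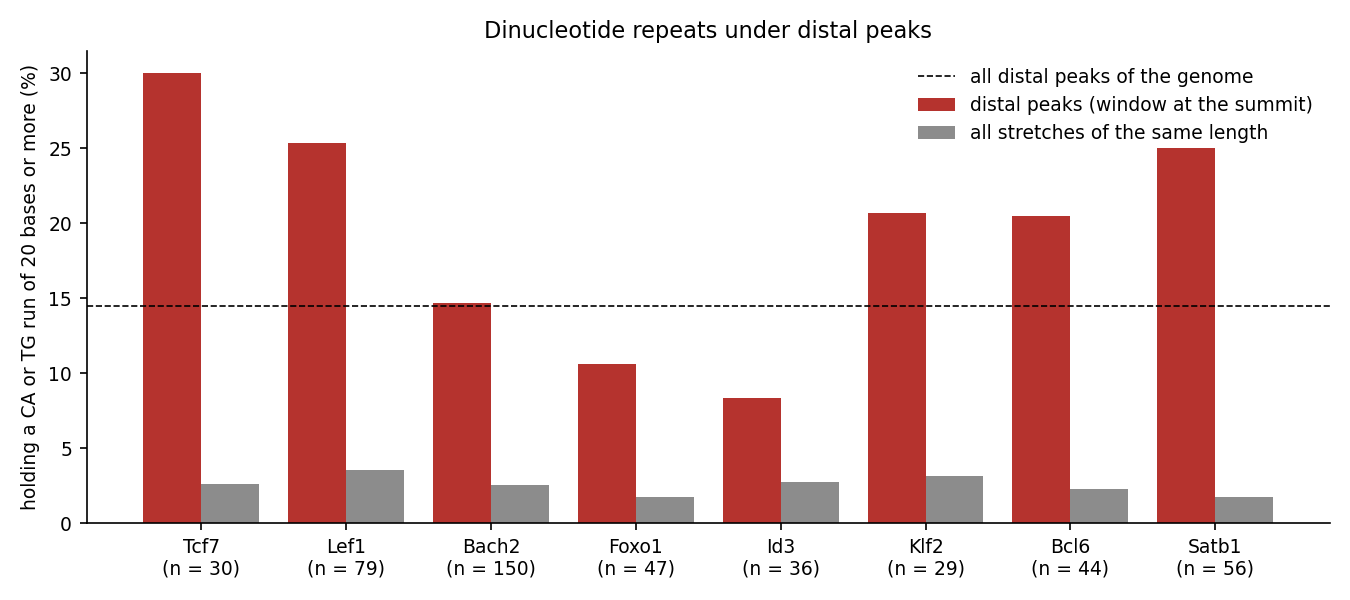
Share (%) of distal peaks with a CA or TG run of 20 bases or more in the 201 bases at the summit (red bars, n peaks under each gene) and of all 201-base tiles of the same window (grey bars), with a dashed line for all distal peaks of the genome (14.5%). Red bars range from 8.33% at Id3 to 30.0% at Tcf7, and grey bars from 1.73% to 3.57%.

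The share differed between genes and between groups. It was 30.0% of 30 distal peaks at Tcf7, 25.3% of 79 at Lef1, 25.0% of 56 at Satb1 and 20.7% of 29 at Klf2, then 20.5% of 44 at Bcl6, 14.7% of 150 at Bach2, 10.6% of 47 at Foxo1 and 8.33% of 36 at Id3. By group it was 31.2% of 32 peaks in WT TE, 23.5% of 136 in TPdh-/- TE, 23.7% of 97 in WT TM and 11.2% of 206 in TPdh-/- TM. The distal peaks of the whole genome had the same order at its ends, with 26.7%, 17.7%, 19.1% and 9.04%. Peaks of 1 library are not independent of each other, and no test was made of these shares.

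When distal peaks on such runs were left out, a choice made after the data were seen, calls changed at 3 genes in the genotype comparisons. Bcl6 in memory cells fell to 4.75 against 1.25 and was no longer called (exact permutation p = 0.0571), Lef1 in effector cells to 4 against 1.25 (exact permutation p = 0.114). Bach2 in memory cells became called, with 18, 18, 13 and 14 peaks in TPdh-/- TM and 11, 1, 2 and 9 in WT TM (exact permutation p = 0.0286). Bach2 and Bcl6 in effector cells remained called. This setting was run on the 8 genes only, so no share of all coding genes stands beside these calls. With all distal peaks, 7.96% of coding genes were called in TPdh-/- TM against WT TM and 26.8% in TPdh-/- TE against WT TE.

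Of 20 other memory and quiescence genes, 105 of 320 gene and library pairs had a start peak (32.8%), and of 8 effector factors 46 of 128 (35.9%). The memory genes had shares of 21.2% in WT TE, 32.5% in TPdh-/- TE, 30.0% in WT TM and 47.5% in TPdh-/- TM, the last close to that of the 8 genes. In the same order the effector factors had 31.2%, 21.9%, 50% and 40.6%. In the 4 comparisons above, in the same order, 5, 10, 2 and 0 of the 20 genes were called for a higher distal number, beside 7.96%, 26.8%, 6.91% and 1.81% of coding genes, and none passed after adjustment. Zeb1, a repressor kept in central memory cells, had 7.25 distal peaks per library in TPdh-/- TM and 1.75 in WT TM, and 5.25 in TPdh-/- TE and 0.25 in WT TE (exact permutation p = 0.0286 in both). For start presence only Tsc1, which restrains mTOR in quiescent cells, was called, with 4 of 4 WT TM and 0 of 4 WT TE libraries (two-sided Fisher's exact p = 0.0286, adjusted p = 1), beside 0.278% of coding genes. Of the 8 effector factors 2, 5, 1 and 0 were called for a higher distal number, with none passing after adjustment.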

How the data were processed

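ATAC-seq was measured in 16 libraries. By the study's methods, the authors trimmed paired reads with Trimmomatic, aligned them to GRCm38 with BWA 0.7.17, kept reads with a unique position outside blacklisted regions, and called peaks per library with MACS2 2.2.7.1, versions also named in the submitters' processing notes. The deposited lists hold a display score, the fold enrichment at the summit (a ratio), −log10 of p and of q, and the summit offset. They give no read depth, and the study's methods state a minimum number of read pairs but not the depth of each library. Reads that map to several places were removed, which can thin peaks in repeats. The authors' fold enrichment and −log10 p were solved for whole summit pileups and the local background. Of 645567 peaks, all but 126 were solved within 0.001.

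Genes and transcript starts came from GENCODE M21, and sequences from RefSeq GRCm38.p6, which had promoter windows for all 8 genes. Groups and replicate numbers came from the labels. Presence was tested with Fisher's exact test and distal numbers with the two-sided exact permutation test over 70 arrangements of 8 libraries (smallest p 0.0286), on all 21938 coding genes, or 3563 recurring sites, with Benjamini-Hochberg adjustment. A gene was called at an unadjusted p under 0.05. All tests were tested on simulated data. The genes, gene lists and tests were chosen with earlier results of these data known. All 8 genes are named by rule, with at most 5 of the 20 other genes, and sites held by at least 6 libraries. Sites held by 3 libraries, and CA runs, were taken up after seeing the data. Alternatives changed the start window, flank, peak threshold, list length, scaling, overlap, pairing and replicates. Python 3.11.15, numpy 2.4.6, scipy 1.17.1 and pandas 2.3.3 were used. The same replicate numbers did not deviate together between groups (correlations −0.0444 to 0.0441). No replicate lists were duplicates, and the most peaks that any pair of replicates shared exactly was 8. A gene of the other lists and a sequence are not reported here.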

Additional observations from a re-analysis of the deposited data

Results flagged for a closer look

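In 5 of 32 combinations of gene and group, the number of distal peaks of 1 library lay far from the other 3 by Dixon's limit at 95% for groups of 4, where chance would give about 1 in 20. Lef1 had 11 distal peaks in TPdh-/- TE replicate 3, the longest list of that group, and 5, 6 and 5 in the other libraries. Foxo1 and Bcl6 each had 1 in WT TE replicate 2 and 0 in the other 3 libraries. Klf2 had 2 in WT TE replicate 1 and 0 in the other 3. Bcl6 had 4 in TPdh-/- TE replicate 3 and 3 in each of the others. With small whole numbers a step of 1 peak is enough to pass this limit. Whether loss of Pdha1 moved the distal number differently in memory and effector cells was tested by permutation of residuals (10000 draws), which passed at none of the 8 genes, with the lowest p at Tcf7 (0.115, adjusted p = 0.607), where the mean fell by 1.75 in TM and rose by 0.75 in TE.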

How the results depend on the processing

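The Satb1 call at starts, 1 gene in TPdh-/- TM against WT TM, became 0 with windows of 500 or 2500 bp, with the 5′ end alone, with a −log10 q of at least 5, with equal-sized lists and with the replicate block. Leaving out 1 library gave 1 to 2 genes called, the higher without WT TM replicate 4, where Bach2 was added, and 0 to 1 in TPdh-/- TM against TPdh-/- TE, where Bach2 was called without TPdh-/- TE replicate 4. The distal count in TPdh-/- TM against WT TM, 1 gene, became 0 with equal-sized lists, with peaks at other genes' starts counted, per 10000 peaks and with the replicate block, and 2 with a flank of 100 kb. Leaving out 1 library gave 0 to 3, with 3 without WT TM replicate 1, 2 without TPdh-/- TM replicate 1 or 3, and 0 without WT TM replicate 4. At 5 kb of flank the gene called was Bach2, and at a −log10 q of at least 5 it was Lef1. In TPdh-/- TE against WT TE, 3 genes became 0 with a −log10 q of at least 5, with equal-sized lists, per 10000 peaks and with the replicate block, 1 with a flank of 5 kb, where Lef1 (exact p = 0.143) and Bcl6 (exact p = 0.0857) were lost, and 2 to 4 when 1 library was left out, where Bach2 was lost without any 1 of the WT TE libraries. Bach2 was also lost with peaks at other genes' starts counted, and Klf2 was added with a flank of 100 kb (4 genes). In WT TM against WT TE, 0 genes became 1 (Foxo1) with a flank of 100 kb, per 10000 peaks, without CA or TG runs, and without WT TM replicate 3 (0 to 1). In TPdh-/- TM against TPdh-/- TE, 0 became 1 with a flank of 100 kb, and 0 to 1 when 1 library was left out. Calls of recurring sites stayed at 0 except for 1 (0 to 1) in WT TM against WT TE without WT TE replicate 3. The replicate block, sign flips over libraries of the same number, has a smallest p of 0.125 and can call nothing, and the numbers did not pair the samples. A −log10 q of at least 5 left 0 recurring sites in the 8 windows, and a summit always lies in its own region, so a core of 250 bp to each side was added (6 sites). Alternatives on strength were not run, since no gene could be tested. The cause of these changes was not tested. Shares of all coding genes called were taken only for the main settings and per 10000 peaks. Under the other alternatives the counts of the 8 genes have no such share beside them, and cannot be set against the genome. The read depth of each library is unknown, and called summits held as few as 3 fragments.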

Other observations

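Of the merged distal regions, 10 in the 8 windows were held by 3 libraries, too few for the recurring sites above, and they were looked at after their values were seen. Of these, 6 were held by libraries of both genotypes, 3 by TPdh-/- libraries alone and 1 by WT libraries alone. Of the 8545 such regions of the genome, 69.5%, 28.0% and 2.48% were held in these ways. The last, an intronic site of Tcf7 at +18.3 kb (chr11:52264594-52264850), was held by WT TE replicate 3 and WT TM replicates 1 and 3. Its fold enrichments were 4.89, 10.2 and 4.86, and the peak in WT TM replicate 1, with 16 fragments at the summit and a −log10 q of 13.2, was the strongest distal peak of all 471. The 3 held by TPdh-/- libraries alone lay in the Bach2 window, which also held the most distal peaks (150 of 471), at +112.6 and +245.1 kb in introns, each with 1 TPdh-/- TE and 2 TPdh-/- TM libraries, and upstream of the gene in intergenic DNA, with 2 TPdh-/- TE and 1 TPdh-/- TM library. The 6 others lay in the Lef1, Foxo1, Id3, Bcl6 and Satb1 windows, with 2 of them at Id3. With 3 libraries these sites cannot reach a call of 4 against 0.

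The windows of the 8 genes hold 9 starts of other coding genes, with start peaks in a median of 1 library. Casp8ap2, in the Bach2 window, had one in 11 libraries, 2 of WT TM and 3 of each other group, beside 6 for Bach2. Hadh, a gene of fatty acid oxidation in the Lef1 window, had one in 5 libraries beside 4 for Lef1. Over the 16 libraries, the coding genes whose start fold enrichment ran most like that of Satb1, with 0 where no peak was called, were Ccdc146 (Spearman's rho 0.891), Basp1 (0.871) and Ammecr1 (0.851), each with start peaks in 5 libraries. These values share library and list length, and are a description over libraries with mostly no peak.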
